A study of Sus scrofa with 26 samples.

Results

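STAR, SULT2A1, CYP11A1, NR5A1 and SCARB1 are 5 genes that move, convert or tag steroids and the cholesterol they are made from, and their mRNA was followed here in pig subcutaneous adipose tissue (SCAT). Their probes were found by name: a probe belonged to the set where its printed gene name, an accession or its description named one of the 5 genes. Of the 11570 genes named on the array they are 5, and they were read by 25 of its 60305 probes, namely 9 for STAR, 2 for SULT2A1, 5 for CYP11A1, 3 for NR5A1 and 5 for SCARB1, plus 1 probe, A_72_P137621, described only as similar to a scavenger receptor class B member of another species. STAR and SULT2A1 were picked because their mRNA differed between heat stress and thermoneutrality in these same pigs. The heat contrast is therefore given for all 5 genes as a description without a test, and tests were kept for breed, for breed by temperature and for agreement between genes.

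The study hybridised Cy3-labelled cRNA, the complement of the mRNA, of 26 castrated growing pigs to 26 one-colour arrays on 5 slides, 1 pig per array. The pigs were Creole (n = 8), Large White (LW, n = 9) or their cross F1 (n = 9). They were slaughtered either before the rise in temperature, at thermoneutrality (TN, 24 °C: 3 Creole, 4 F1 and 4 LW pigs), or after the heat exposure (HS: 5 pigs of each breed). The labels give the heat as 30 °C and the text of the series as 32 °C for 5 days. The labels give no age. No pig was sampled both before and after, and the TN pigs were killed on earlier days than the HS pigs, so temperature and day of slaughter cannot be told apart. By the study's methods each breed came in 3 blocks of 4 littermates, which the labels do not assign. Each group of 4 or 5 pigs therefore held littermates, and the 3 Creole TN pigs may be kin. The tests below take pigs as independent. The 11 TN and 15 HS arrays had between 68.5% and 76.6% of probes well above background, and no probe of the 5 genes was saturated. All levels below are log2 quantile-normalized intensities, and all differences are on the log2 scale.

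In steroid-making cells, SCARB1 takes up cholesterol from high density lipoprotein at the cell surface. STAR, the steroidogenic acute regulatory protein, carries cholesterol to the inner mitochondrial membrane, and there CYP11A1, the side chain cleavage enzyme, turns it into pregnenolone. NR5A1 is the nuclear receptor that switches on the genes of this route in the adrenal gland and gonads. SULT2A1 is a sulfotransferase that adds sulfate to dehydroepiandrosterone and to bile acids, which makes them soluble and inactive at receptors. Adipose tissue takes up and stores steroids and converts them locally, whereas full synthesis from cholesterol is a property of the adrenal cortex, gonads and placenta.

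Of the 25 probes, 19 were well above background on at least 8 arrays and entered the fits, together with 44703 probes in all. These were 8 of 9 for STAR, both for SULT2A1, 3 of 5 for CYP11A1, 1 of 3 for NR5A1 and all 5 for SCARB1. The probe described by similarity was above background on 0 arrays. Of the adipocyte markers with a probe, 7 of 7 were well above background on all 26 arrays. The same held for all 8 skeletal muscle, 6 macrophage and 5 endothelial markers with a probe, so detection alone does not single out a cell type. Of 6 adrenal cortex markers with a probe, MC2R, the receptor for adrenocorticotropic hormone, was above background on 0 arrays and CYP17A1, the enzyme that makes androgen precursors, on at most 7. CYP21A2, HSD3B1, MRAP and NR0B1 each had a probe above background on all 26 arrays. The summed level of the adrenal cortex markers spanned 8.71 to 9.23 in TN and 8.64 to 9.23 in HS. Red blood cell markers moved with the heat contrast: their score averaged 0.18 ± 0.20 (SD) over the 11 TN arrays and -0.13 ± 0.29 (SD) over the 15 HS arrays, and their summed level spanned 12.41 to 12.80 and 12.18 to 12.99. Of the 4 measured red blood cell markers 1, HBB, passed the test (HS minus TN -0.85, limma adjusted p = 0.011). Of 7 adipocyte markers, ADIPOQ was higher in HS (0.16, limma adjusted p = 0.038) and CIDEA lower (-0.43, limma adjusted p = 2.3e-04), and of 5 endothelial markers CDH5 was lower (-0.23, limma adjusted p = 0.025). CIDEA and LEP were lower in LW than in Creole pigs (-0.31 and -1.23, limma adjusted p = 0.010 and 0.044). Apart from fits with the red blood cell score as a covariate, the part of these markers in the results below was not examined. Skeletal muscle and keratinocyte markers varied widely in both conditions, from 14.68 to 16.84 in TN and 14.78 to 18.46 in HS for muscle, and none of the 8 and 3 measured ones passed. In whole tissue, fewer cells of a type and less RNA per cell cannot be told apart.

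The probes differ in what they can read, and 6 sequences are shown because the results turn on them. Both STAR probes cover one stretch of the gene, but in opposite orientation: the capitals mark the 40 bases of each that are the reverse complement of the other. A_72_P748050 starts at base 552 of its transcript record. O9130 is the STAR probe that stayed near background, on 7 of 26 arrays above it.
STAR A_72_P748050: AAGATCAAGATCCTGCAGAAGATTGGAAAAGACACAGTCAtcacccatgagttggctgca
STAR O9130: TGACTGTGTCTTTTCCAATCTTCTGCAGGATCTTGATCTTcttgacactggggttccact
The SULT2A1 probe starts at base 484 and was above background on every array. The CYP11A1 pair is shown since A_72_P545357, from base 903, was above background on 26 arrays and A_72_P381703, from base 1478, on 0. The NR5A1 probe, from base 1980, was also above background on 0 arrays. No capitals are used in these 4 because no part of them is singled out.
SULT2A1 A_72_P459255: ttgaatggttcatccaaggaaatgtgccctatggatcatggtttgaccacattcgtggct
CYP11A1 A_72_P545357: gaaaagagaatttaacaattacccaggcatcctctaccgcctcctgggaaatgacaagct
CYP11A1 A_72_P381703: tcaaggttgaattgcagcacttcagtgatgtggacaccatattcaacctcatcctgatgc
NR5A1 A_72_P444608: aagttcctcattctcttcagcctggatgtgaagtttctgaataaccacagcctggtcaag

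Mean STAR mRNA was lower in the HS pigs than in the TN pigs of all 3 breeds, by least in F1, where the groups overlapped. At A_72_P178366, the STAR probe with the highest mean level and the one nearest the end of the record (base 2567), the LW TN pigs measured 10.36, 11.11, 10.75 and 11.55, and the LW HS pigs 8.79, 8.46, 7.89, 8.06 and 9.12. Every LW HS pig lay below every LW TN pig, with more than 1 log2 unit between the groups. The Creole TN pigs measured 10.50, 10.47 and 10.62, and the Creole HS pigs 9.5, 9.66, 8.73, 10.06 and 7.78. The TN values lay close together, with an SD of 0.08 (n = 3), whereas the HS values spread over an SD of 0.91 (n = 5) and all lay below them. The F1 TN pigs measured 10.34, 9.29, 10.47 and 9.52, and the F1 HS pigs 9.06, 8.84, 8.65, 10.07 and 9.45. Here the groups overlapped, and 3 of the 5 HS pigs lay below the lowest TN pig.

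**Figure D1:**
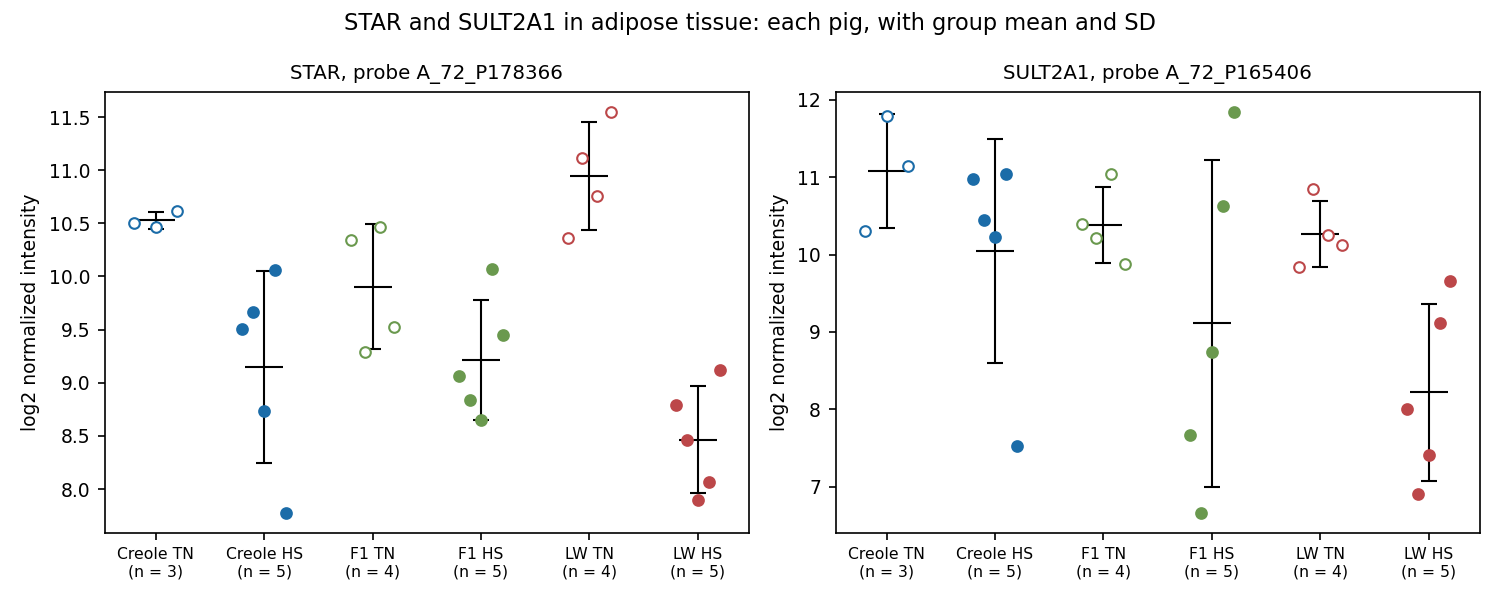
Levels of STAR (left, probe A_72_P178366) and SULT2A1 (right, probe A_72_P165406) in log2 normalized intensity for each pig of the 6 breed by temperature groups, open circles for TN and filled circles for HS, with group mean and SD in black; sideways offsets have no meaning. The LW HS pigs lie wholly below the LW TN pigs in both panels, and SULT2A1 spreads from 6.67 to 11.84 among the F1 HS pigs.

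Over the 3 breeds, with breed as a covariate, STAR at A_72_P178366 was 1.52 ± 0.26 (SE) log2 units lower in HS, which is 34.8% of the TN level (HS minus TN -1.52). The mean over the 15 HS pigs was 8.94 ± 0.72 (SD) and that over the 11 TN pigs 10.45 ± 0.63 (SD). Of the 15 HS pigs, 14 lay below the TN mean of their own breed. By breed, HS minus TN was -2.48 ± 0.38 (SE) in LW, -1.38 ± 0.41 in Creole and -0.69 ± 0.38 in F1. At A_72_P748050 the F1 difference was -0.22 ± 0.30 (SE). Within the 5 slides it ran from -0.91 to -2.62, so the sign was the same on each slide.

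All 8 tested STAR probes differed in the same direction, by -0.78 to -1.52. The smallest difference was at A_72_P748050, the probe printed above, where the HS level was 58.3% of the TN level (HS minus TN -0.78 ± 0.20, SE). At A_72_P748050 the LW TN pigs measured 7.55, 8.26, 7.76 and 8.39, and the LW HS pigs 6.93, 6.72, 6.29, 5.92 and 7.0. HS minus TN was -1.16 at A_72_P714533 (base 1459), -0.97 at A_72_P749046 (base 1750), -1.22 at A_72_P736078 (base 1921) and -1.47 at A_72_P722403 (base 2166). It was -1.43 at A_72_P232672 (base 2506) and -1.47 at A_72_P764421 (base 2563). The 4 probes from base 2166 onwards thus gave the 4 largest differences. These probes read 1 transcript and are not replicates of each other. The last pair also shares a run of 34 bases. The HS arrays lay wholly below the TN arrays of the breed at 8 of 8 STAR probes in LW and 7 of 8 in Creole, but at 0 of 8 in F1. Over all 44703 tested probes that happened for 5.02%, 3.55% and 3.72% respectively. Because STAR was chosen from this contrast, nothing is read from these counts.

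The STAR probe in the opposite orientation did not follow the others. O9130 measured 5.49, 6.19, 5.57 and 5.94 in the LW TN pigs and 5.62, 5.52, 5.37, 5.40 and 5.68 in the LW HS pigs, so the groups overlapped. Its HS minus TN was -0.13 ± 0.08 (SE) over the 3 breeds. Among pigs of the same group, the correlation of O9130 with A_72_P178366 was 0.36, while that of the 7 other tested STAR probes ran from 0.70 for A_72_P748050 to 0.99 for A_72_P764421 (n = 26 arrays, group means removed, description only).

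SULT2A1 mRNA was lower in HS as well, but with a far wider spread among the HS pigs. At A_72_P165406 the LW TN pigs measured 9.83, 10.84, 10.25 and 10.12, and the LW HS pigs 8.01, 6.91, 7.41, 9.11 and 9.66. All 5 HS pigs lay below all 4 TN pigs. The F1 TN pigs measured 10.40, 10.21, 11.04 and 9.88, and the F1 HS pigs 7.67, 6.67, 8.74, 10.63 and 11.84. The F1 HS group therefore held both the lowest and the highest value of all 26 pigs. The Creole TN pigs measured 10.31, 11.78 and 11.14, and the Creole HS pigs 10.98, 10.44, 10.23, 11.04 and 7.52. In Creole, 4 HS pigs lay within or near the TN range and 1 lay far below it.

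Over the 3 breeds SULT2A1 at A_72_P165406 was at 36.0% of the TN level in HS (HS minus TN -1.47 ± 0.47, SE), and 13 of 15 HS pigs lay below the TN mean of their breed. The second probe, A_72_P459255, gave -1.43 ± 0.41 (SE), and both probes rose and fell together over the pigs (r = 0.99 with group means removed, n = 26). By breed, HS minus TN at A_72_P165406 was -2.04 ± 0.81 (SE) in LW, -1.27 ± 0.81 in F1 and -1.03 ± 0.88 in Creole. Single pigs weighed on the last 2 values: without the Creole HS pig 5 the Creole difference was -0.41 and without the Creole TN pig 2 it was -0.68, and the F1 difference was -0.66 without the F1 HS pig 2 and -1.96 without the F1 HS pig 5. Within the 5 slides it ran from -0.42 to -2.25. With the red blood cell score as a covariate it was -0.85 ± 0.51 (SE), and that of STAR at A_72_P178366 was -1.30 ± 0.30 (SE). These covariate fits are the extent to which blood content was examined.

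**Figure D2:**
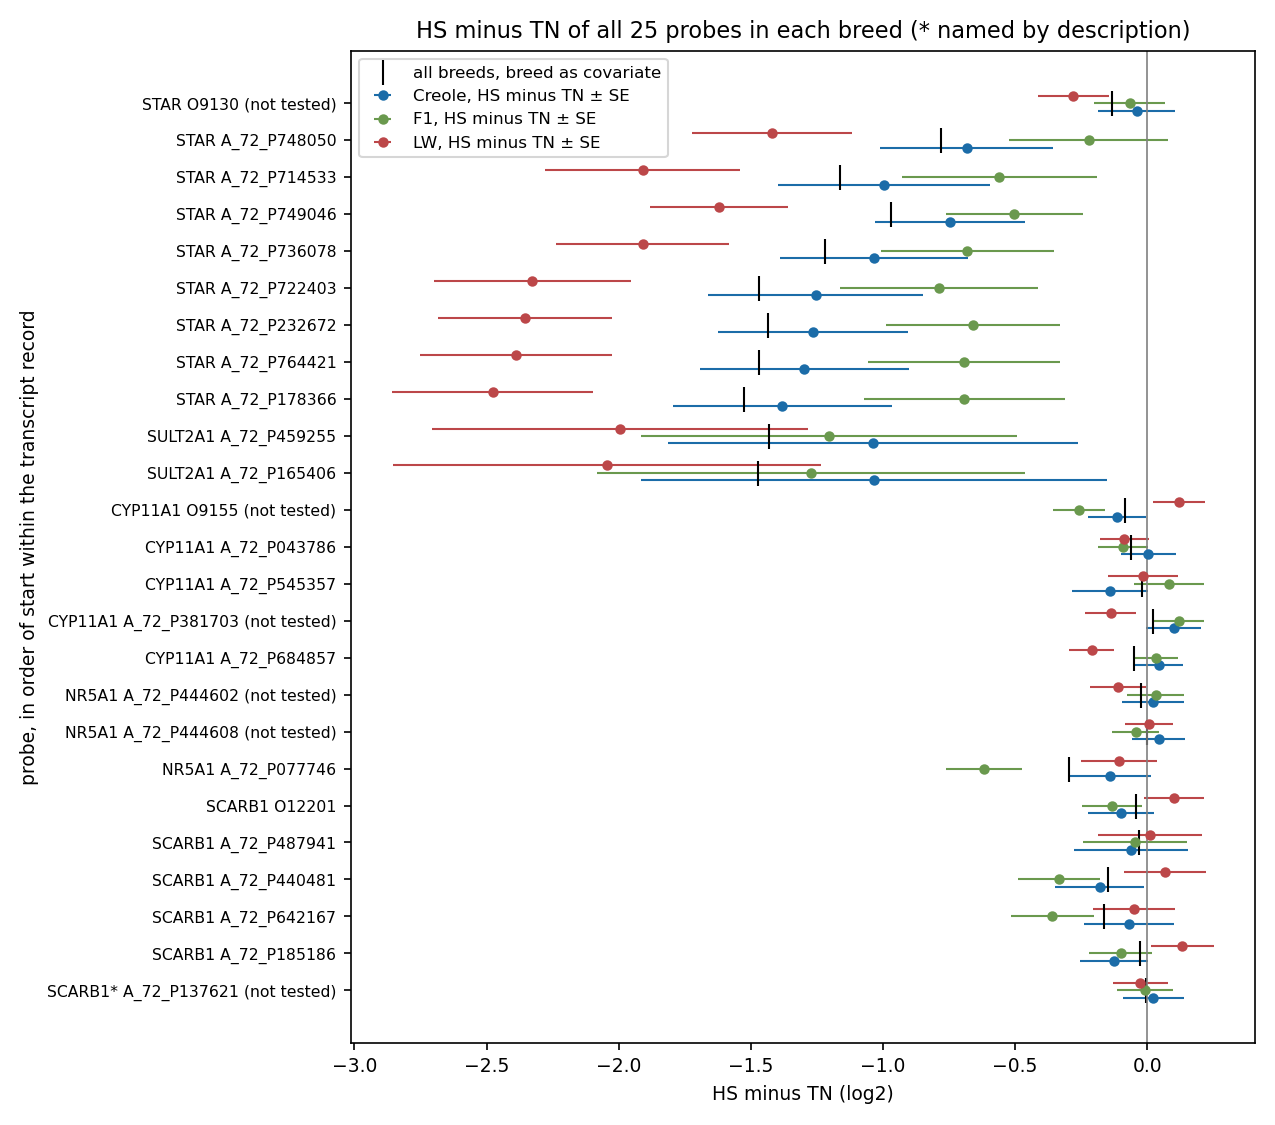
HS minus TN on the log2 scale (horizontal axis) for all 25 probes, by breed (coloured points with SE bars: Creole blue, F1 green, LW red) and over the breeds with breed as a covariate (black ticks); probes of a gene stand in order of their start within the transcript record. The 8 tested STAR probes and both SULT2A1 probes lie to the left of 0 in every breed, LW farthest, while CYP11A1 and SCARB1 lie between -0.36 and 0.13 at all tested probes.

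CYP11A1, the enzyme that follows STAR, showed no such difference, but its levels lay nearer background. CYP11A1 at A_72_P545357 had TN values from 6.75 to 7.32 (median 7.01) and HS values from 6.78 to 7.37 (median 6.93), so the groups covered almost the same range. HS minus TN was -0.02 ± 0.08 (SE) there, -0.06 ± 0.05 at A_72_P043786 and -0.05 ± 0.05 at A_72_P684857. The 2 prints of the sequence from base 1478, A_72_P381703 and O9155, were above background on 0 and 1 arrays, and their values over the 26 arrays were unrelated (r = 0.05). The signal of CYP11A1 thus rested on 3 of its 5 probes, with A_72_P684857 above background on 24 arrays.

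NR5A1 was at the edge of detection. A_72_P444602 and A_72_P444608 were above background on 0 arrays. A_72_P077746, from base 2874, was above background on 7 of 11 TN and 4 of 15 HS arrays, and HS minus TN was -0.30 ± 0.09 (SE). At this probe most of the difference came from the F1 pigs, which measured 6.11, 6.30, 6.47 and 5.78 in TN and 5.57, 5.47, 5.72, 5.44 and 5.55 in HS. All 4 F1 TN pigs were above background and 0 of the 5 F1 HS pigs were. The measured means were 6.17 and 5.55, a 1.53-fold gap that is a point estimate (HS minus TN -0.62 ± 0.14, SE). Over 8 alternatives of processing, HS minus TN in F1 ran from -1.50 to -0.41. In Creole and LW the differences were -0.14 and -0.11, and HS and TN overlapped. The probe was above background on 11 arrays, 4 of them F1 TN, so it met the minimum of 8 arrays only through the group where it was high, and the F1 difference is given as a description. Under scaling to the 75th percentile of the background-subtracted signal, HS minus TN of A_72_P077746 was -0.93, and after normexp background correction it was -0.21.

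SCARB1, the receptor through which cells take up high density lipoprotein cholesterol, differed little with temperature. At O12201, the brightest of its probes, TN values ran from 15.28 to 16.12 (median 15.73) and HS values from 15.32 to 15.91 (median 15.71). HS minus TN was -0.04 ± 0.07 (SE) there and between -0.16 and -0.03 over all 5 probes. At O12201 it was -0.16 ± 0.07 (SE) under 75th percentile scaling and -0.12 ± 0.08 (SE) with the red blood cell score as a covariate.

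**Figure D3:**
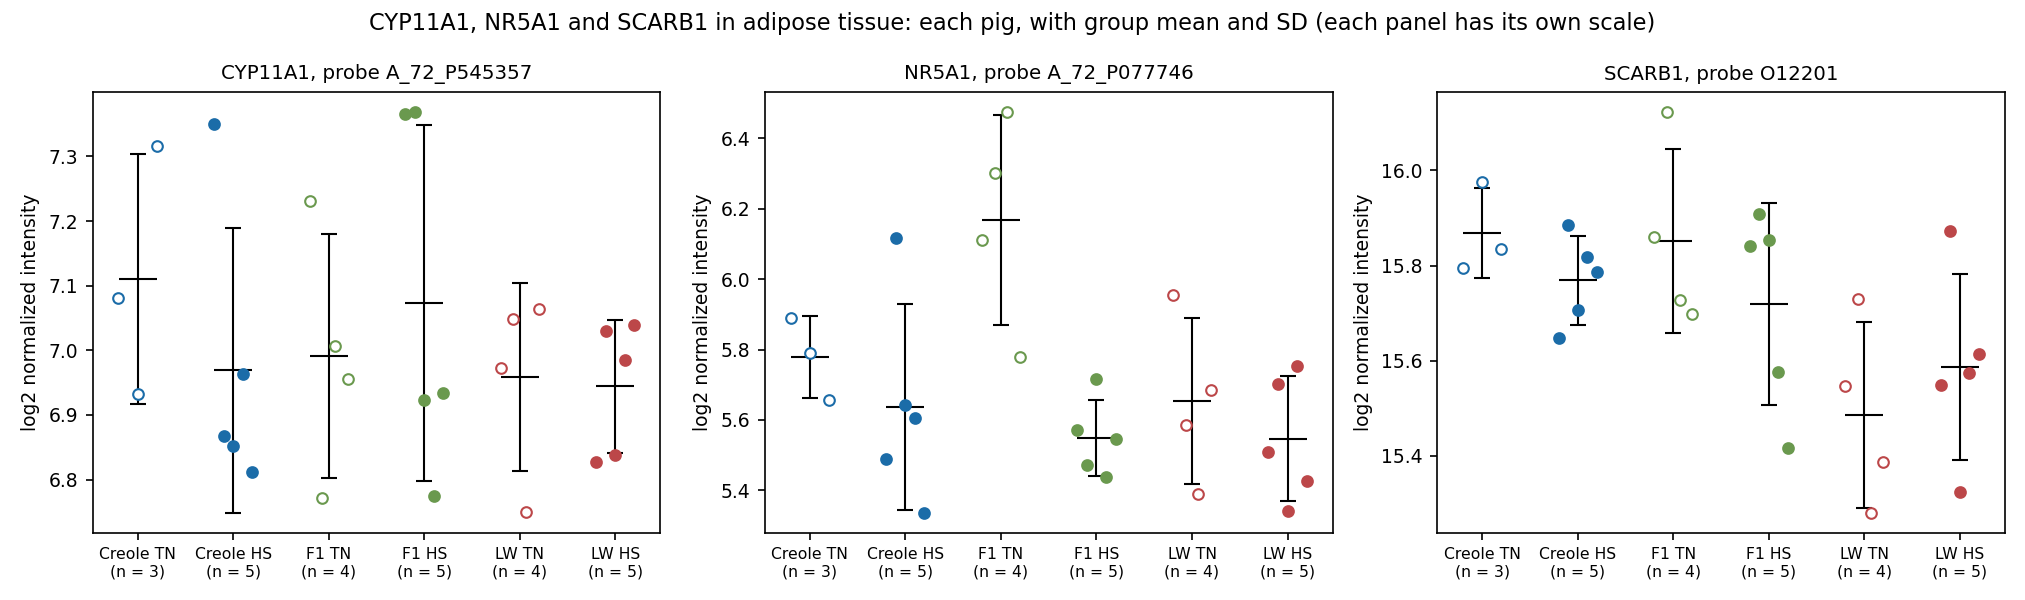
Levels of CYP11A1 (A_72_P545357), NR5A1 (A_72_P077746) and SCARB1 (O12201) in log2 normalized intensity for each pig of the 6 groups, open circles for TN and filled circles for HS, with group mean and SD; each panel has its own vertical scale. NR5A1 stands apart in the F1 TN pigs, and SCARB1 is lowest in the LW TN pigs, at a mean of 15.49.

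Identical sequences printed more than once gave a check on these values. O12201 and A_72_P185186 of SCARB1 have the same 60 bases, differed by a median of 0.06 log2 units over the 26 arrays and gave HS minus TN of -0.04 and -0.03. A further 4 probes carry no gene name or description and fall outside the rule, although their printed names hold a RefSeq accession of a member. The one for STAR has the same 60 bases as A_72_P232672, correlated with it at r = 0.996 over the 26 arrays and gave HS minus TN of -1.51. The one for NR5A1 repeats A_72_P077746, was above background on 21 arrays and also gave -0.30, but correlated with A_72_P077746 only at r = 0.50. Its difference was not examined by breed, so the F1 pattern of NR5A1 rests on A_72_P077746 alone. The one for SCARB1 repeats O12201 and correlated with it at r = 0.94, and the one for CYP11A1, which shares 57 bases with A_72_P381703, was above background on 3 arrays.

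Across breeds, the group means were put in order, and which steps exceeded the spread varied with the probe. For STAR at A_72_P178366 the order was LW TN (10.94 ± 0.51, SD, n = 4), Creole TN (10.53 ± 0.08, n = 3), F1 TN (9.90 ± 0.59, n = 4), F1 HS (9.21 ± 0.56, n = 5), Creole HS (9.15 ± 0.91, n = 5) and LW HS (8.47 ± 0.51, n = 5). LW thus stood first in TN and last in HS. At this probe only the steps from Creole TN to F1 TN and from F1 TN to F1 HS exceeded the larger SD of the 2 neighbours. At the other tested STAR probes the step down from F1 TN did not exceed it. The last step, to LW HS, did so at A_72_P232672, A_72_P722403, A_72_P736078 and A_72_P764421. For SULT2A1 at A_72_P165406 the order was Creole TN (11.08 ± 0.74), F1 TN (10.38 ± 0.49), LW TN (10.26 ± 0.42), Creole HS (10.04 ± 1.45), F1 HS (9.11 ± 2.12) and LW HS (8.22 ± 1.15), and no step between neighbours exceeded their spread. At A_72_P459255 the step from Creole TN to F1 TN narrowly did (0.74 against an SD of 0.71). For SCARB1 at O12201 both LW groups came last, at 15.59 ± 0.20 in HS and 15.49 ± 0.20 in TN, behind the Creole and F1 groups at 15.72 to 15.87.

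The difference between LW and Creole pigs was tested with temperature as a covariate by limma. The fit took each pig as independent, although the pigs of a breed included littermates. SCARB1 at O12201 averaged 15.54 ± 0.19 (SD) over the 9 LW pigs against 15.81 ± 0.10 (SD) over the 8 Creole pigs, a difference of -0.27 ± 0.08 (SE) with 8 of 9 LW pigs below the Creole mean of their own temperature (limma adjusted p = 0.033). A_72_P185186, which repeats the sequence, gave -0.28 ± 0.09 (limma adjusted p = 0.033). The 3 SCARB1 probes of other sequence gave -0.20 to -0.28 and did not pass. Leaving out 1 pig at a time moved the adjusted p of O12201 between 0.014 and 0.070, and it passed in 20 of 26 fits. It was lost without the Creole TN pig 2, the Creole HS pigs 2 or 4, the LW TN pigs 3 or 4, or the LW HS pig 3. These were 2 of the 19 tested member probes, against 14.3% of all tested probes past the same threshold, a share no higher than the background.

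SULT2A1 was lower in LW than in Creole pigs at both probes, but the test was not passed. At A_72_P165406 the mean was 9.13 ± 1.37 (SD) over the 9 LW pigs against 10.43 ± 1.28 (SD) over the 8 Creole pigs, and 9 of 9 LW pigs lay below the Creole mean of their temperature. The fitted difference was -1.41 ± 0.57 (SE, limma adjusted p = 0.10), and -1.44 ± 0.51 at A_72_P459255 (limma adjusted p = 0.057). Without the Creole HS pig 5, the low one, the differences were -1.74 and -1.73 with limma adjusted p of 0.028 and 0.014. A_72_P459255 also passed without any one of 5 other pigs (the Creole TN pig 1, the F1 HS pigs 2 and 5, the LW TN pig 2 and the LW HS pig 5) and with array weights, which gave -1.51 (limma adjusted p = 0.026). STAR gave -0.21 ± 0.32 at A_72_P178366 (limma adjusted p = 0.72) and no tested STAR, CYP11A1 or NR5A1 probe passed, with adjusted p between 0.49 and 0.96.

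The difference of the F1 pigs from the midpoint of both parent breeds passed the test at 0 of the 19 probes (limma). The NR5A1 probe is among them but entered the fits through F1 TN. Its F1 minus mid-parent of 0.17 ± 0.10 (SE) is therefore given as a description. F1 minus mid-parent was -0.15 ± 0.27 (SE) for STAR at A_72_P178366, -0.16 ± 0.49 for SULT2A1 at A_72_P165406 and 0.10 ± 0.07 for SCARB1 at O12201. The limma adjusted p were 0.91, 0.95 and 0.71. Over all tested probes 0.00671% passed. At an unadjusted p under 0.05 there was 1 of the 19 probes (A_72_P487941 of SCARB1), against 8.69% of all tested probes.

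Whether HS minus TN differed between breeds was tested by the breed by temperature interaction. At all 8 tested STAR probes the unadjusted p was between 0.0048 and 0.048, but the limma adjusted p was 0.90 at each, and 0.00224% of all tested probes passed. At A_72_P178366, HS minus TN in LW less that in Creole was -1.10 ± 0.56 (SE). For SULT2A1 the adjusted p was 0.94 and 0.95. The 8 STAR probes with an unadjusted interaction p under 0.05 read 1 transcript, and 5.23% of all tested probes were under that threshold. The NR5A1 probe, which entered the fits through F1 TN, is not counted here.

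Within one temperature, the gap between LW and Creole pigs in SULT2A1 was wider in HS than in TN, although the interaction did not pass. At A_72_P165406 LW minus Creole was -0.82 in TN and -1.82 in HS (limma adjusted p = 0.72 and 0.16). For STAR at A_72_P178366 it was 0.41 in TN and -0.68 in HS (limma adjusted p = 0.70 and 0.26). No member probe passed in either temperature, against 0.313% of all tested probes in TN and 5.66% in HS. At an unadjusted p under 0.05 there were 3 member probes in TN and 6 in HS, against 15.2% and 22.5% of all tested probes. The 6 were all STAR or SULT2A1 probes. The 3 were A_72_P684857 of CYP11A1 and O12201 and A_72_P185186 of SCARB1, the last 2 of the same sequence. Probes of 1 gene are not independent, so these counts are not counts of genes. Without the Creole HS pig 5, the low one, the difference in HS was -1.03 at A_72_P178366 (limma adjusted p = 0.044) and -2.45 at A_72_P165406 (limma adjusted p = 0.033). Of the 26 fits that each left out 1 pig, this was the only 1 in which either probe passed.

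Within groups, STAR and SULT2A1 mRNA tended to be high in the same pigs. With group means removed, the 2 genes correlated at r = 0.63 (n = 26, permutation p = 0.0033, adjusted over 10 pairs 0.033) and Spearman rho = 0.62 (permutation p = 0.0018, adjusted 0.018). The coefficient was 0.72 with slide means removed too. Without the 2 pigs farthest out in STAR it was 0.51 and the adjusted p rose to 0.27, so the test rests on those pigs. Within the TN arrays r was 0.45 and within the HS arrays 0.69. Of the other 9 pairs of members none passed, with r from -0.38 for SULT2A1 and SCARB1 to 0.38 for NR5A1 and SCARB1 and adjusted p of at least 0.34 for r and 0.30 for rho. CYP11A1 and NR5A1 were unrelated by this measure (r = -0.03). With slide means removed r was 0.56, but it was 0.23 under 75th percentile scaling and 0.08 without the 2 farthest pigs. The NR5A1 probe was above background on only 11 of the 26 arrays and entered the fits through F1 TN. These values are therefore given as a description.

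**Figure D4:**
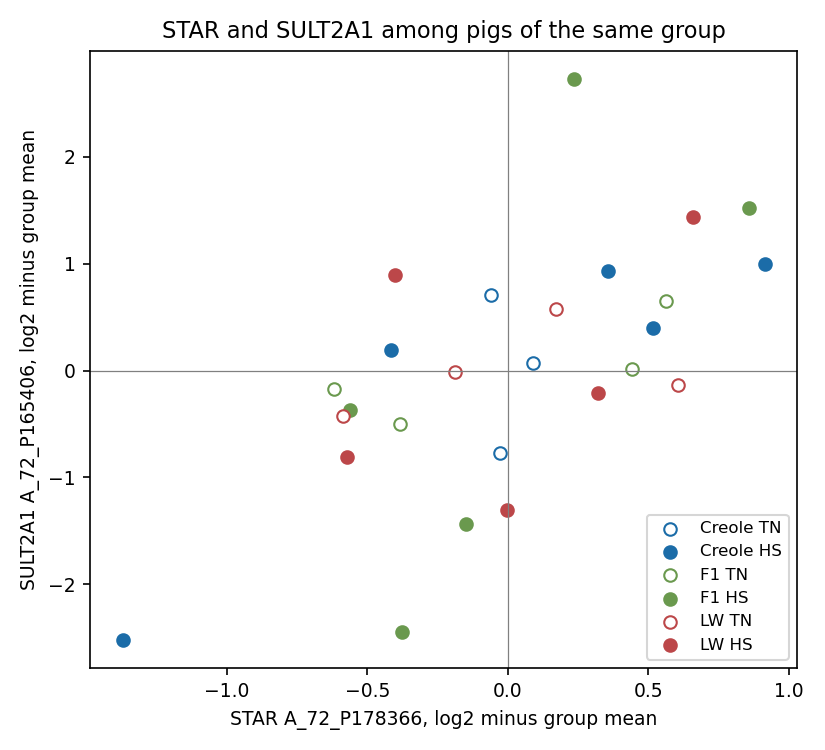
STAR (A_72_P178366, horizontal) against SULT2A1 (A_72_P165406, vertical), each as log2 level minus the mean of its group, for the 26 pigs; open circles TN, filled circles HS, coloured by breed. The points rise together (r = 0.63), and the Creole HS pig at the lower left is low in both genes.

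Among the 9967 named genes with a tested probe, those whose levels went most closely with STAR over the 26 arrays were OXR1 (r = 0.89), PPIA (0.86), MYCBP (0.84), LOC100516480 (0.83), UXT (0.83) and COX5B (0.83). After group means were removed they were MYCBP (0.80), NDUFS3 (0.78), NDUFB11 (0.77), TIMM17B (0.77), OXR1 (0.77) and ENO1 (0.77). NDUFS3 and NDUFB11 are subunits of mitochondrial complex I, COX5B is a subunit of cytochrome c oxidase, and TIMM17B belongs to the import channel of the inner membrane. For SULT2A1 they were NDUFB6 (0.92), MPC2 (0.91), TACO1 (0.90), ATP5L (0.90), GAPDHS (0.87) and AHCYL2 (0.87), and after group means were removed TACO1 (0.91), NDUFB6 (0.89), MPC2 (0.89), SF3B5 (0.88), ATP5L (0.86) and ME1 (0.86). MPC2 is a subunit of the mitochondrial pyruvate carrier, and ME1, malic enzyme, supplies NADPH for fatty acid synthesis. With group means removed SULT2A1 ranked 143 among the genes most like STAR, and STAR ranked 280 among those most like SULT2A1, so many other genes went more closely with either. These are the highest values of many, all read on the same arrays, and stand here as a description without a test.

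The wider steroid route was followed in a list of 115 further genes, 88 of which were on the array and 77 measured, each by its brightest tested probe. In HS 1 of the 77 genes was higher and 7 were lower at a limma adjusted p under 0.05, against 5.17% and 7.02% of all tested probes, and the median HS minus TN was -0.02. The 8 genes were therefore not more than the background share. By role, 0 of 13 cholesterol delivery genes passed, 5 of 22 steroid synthesis genes, 0 of 8 conjugation genes, 2 of 27 regulators and receptors and 1 of 9 relatives of STAR with a START domain.

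AKR1C1, an aldo-keto reductase that reduces steroids and prostaglandins, fell most: it averaged 13.10 ± 0.48 (SD) over the 11 TN pigs and 12.20 ± 0.60 (SD) over the 15 HS pigs, with 15 of 15 HS pigs below the TN mean of their breed (HS minus TN -0.93, limma adjusted p = 2.0e-04). Its 4 other tested probes did not pass and gave -0.20 to 0.29. Genes of this family are alike in sequence, so the level of AKR1C1 is uncertain. HNF4A, a nuclear receptor best known from liver, fell by 0.52 (limma adjusted p = 1.5e-04), again in 15 of 15 HS pigs. POR, the reductase that feeds electrons to microsomal cytochromes P450, fell by 0.46 (limma adjusted p = 0.0028), and 2 of its 3 other probes passed in the same direction. ESR1, the oestrogen receptor alpha, fell by 0.40 (limma adjusted p = 5.7e-04) at 1 probe, while its second, dimmer probe gave 0.03. PCTP, a phosphatidylcholine carrier with a START domain like that of STAR, fell by 0.28 (limma adjusted p = 0.011). HSD17B8 fell by 0.24 (limma adjusted p = 0.0065) and its 3 other probes passed in the same direction, and HSD17B4, the peroxisomal member of this dehydrogenase group, fell by 0.20 (limma adjusted p = 0.039). HSD17B1, which makes oestradiol from oestrone, was the gene that rose (by 0.33, limma adjusted p = 0.028, 13 of 15 HS pigs), and its second probe gave 0.00. With the red blood cell score as a covariate, AKR1C1, HNF4A and ESR1 still passed and the other 5 genes did not, although their differences kept their direction: HSD17B1 was 0.35, POR -0.39, HSD17B8 -0.21, PCTP -0.21 and HSD17B4 -0.16. The share of all tested probes past the threshold was 2.96% with the covariate.

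**Figure D5:**
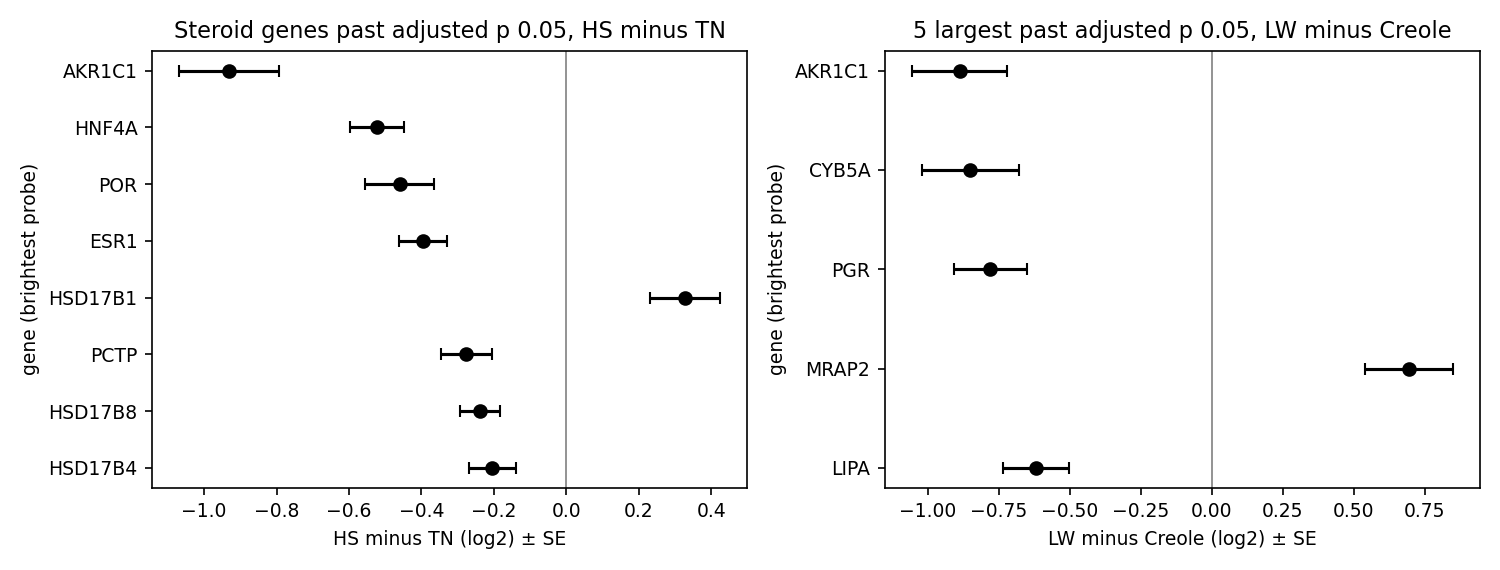
Left, HS minus TN with SE for the 8 other steroid genes past an adjusted p of 0.05; right, LW minus Creole with SE for the 5 largest past it (MRAP2 as a description), each on the log2 scale for the brightest probe of the gene. AKR1C1 has the largest difference in both comparisons, at -0.93 and -0.89.

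Between LW and Creole pigs, 6 of the 77 genes were higher and 10 lower in LW, against 6.89% and 7.43% of all tested probes. AKR1C1 was again the most different, at 12.03 ± 0.69 (SD) over the LW pigs and 12.86 ± 0.55 (SD) over the Creole pigs (LW minus Creole -0.89, limma adjusted p = 0.0015, 9 of 9 LW pigs lower), with the other AKR1C1 probes at -0.13 to 0.25. CYB5A, the cytochrome b5 that assists CYP17A1, was lower by 0.85 (LW minus Creole -0.85, limma adjusted p = 0.0024), and all 7 of its probes passed. PGR, the progesterone receptor, gave -0.78 (limma adjusted p = 5.5e-04), and LIPA, which frees cholesterol from its esters in lysosomes, gave -0.62 (limma adjusted p = 0.0014), each in 9 of 9 LW pigs. MRAP2, a partner of melanocortin receptors, was among the 6 counted as higher, but it was above background on 8 of 9 LW and only 1 of 8 Creole arrays. It therefore met the minimum of 8 arrays only through LW, and its LW minus Creole of 0.69 is given as a description. STS, the sulfatase that takes off the sulfate SULT2A1 adds, was chosen after its value was seen and is given as a description. Its LW minus Creole was 0.36 ± 0.08 (SE), and its HS minus TN of 0.18 did not pass (limma adjusted p = 0.063). Of the 8 measured conjugation genes, 1 was higher and 1 lower in LW at a limma adjusted p under 0.05.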

How the data were processed

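SCAT of 26 pigs was ground, total RNA was extracted, and Cy3-labelled cRNA was hybridised to one-colour Agilent arrays. Per the file headers, the deposited scanner files hold spot intensities read by Agilent Feature Extraction version 10.10.1.1, which the authors had not normalized between arrays. The series table deposited by the authors holds normalized log2 values of 44104 probes with column medians of 8.17. Its lowest correlation with the values used here was 0.999997, and it served as an alternative.

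For the present report, spots flagged as non-uniform and control spots were dropped, median signals were quantile normalized and log2 transformed, spots of a probe were averaged, and a probe was kept where at least 8 arrays read it well above background (R 4.3.3, limma 3.58.1). Linear models with breed and temperature were fitted over 44703 probes with lmFit and eBayes (trend), and p-values were adjusted by Benjamini-Hochberg over all of them. Pen, day of slaughter, father and mother, random effects in the study, are not in the labels and were not fitted. Correlations used 100000 permutations within groups. The model was also run on simulated arrays with independent errors. These held no litter, pen, day or slide structure, so that run cannot show how the tests behave under such structure. The intensity files give no depth, so precision is limited by the number of arrays. The smallest group held 3 pigs.

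Groups were read from sample titles. Slides were read from the array names and tried as a block. The named probes were all probes of the 5 genes. Each other gene was read at its brightest tested probe, and the text names the genes past an adjusted p of 0.05 in HS minus TN and the 5 largest differences between LW and Creole. The 5 genes and all lists were chosen with earlier results of these data known. The promoters and proteins of these genes were not analysed here.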

Additional observations from a re-analysis of the deposited data

Results flagged for a closer look

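Within the 6 groups, 5 of 95 sets of values (19 probes by 5 groups of at least 4 pigs) held a pig far from the rest of its group by Dixon's criterion at the 95% level, which is 5.26% and near the 1 in 20 that chance gives. The Creole HS pig 5 was lowest at both SULT2A1 probes: it measured 6.36 at A_72_P459255, where the other 4 pigs spanned 8.66 to 9.51, and 7.52 at A_72_P165406, where they spanned 10.23 to 11.04. The same pig had the lowest STAR level of its group at A_72_P178366 (7.78), which was not far enough from the others to meet the criterion. The Creole HS pig 1 was highest for CYP11A1 at A_72_P545357 with 7.35, against 6.81 to 6.96 in the others. The LW TN pig 2 was lowest for CYP11A1 at A_72_P684857 with 5.85, against 6.03 to 6.07. The LW TN pig 4 was lowest for SCARB1 at A_72_P487941 with 7.81, against 8.17 to 8.21. Why these pigs stood apart was not tested.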

How the results depend on the processing

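The HS minus TN difference of STAR at A_72_P178366 stayed between -1.64 and -1.25 over 11 alternatives (scaling, background correction, filter, slide as a block, array weights, covariates, mean of probes) and between -1.64 and -1.41 without each pig in turn. Within slides 2, 3 and 5 it was -0.91, -2.16 and -2.62. For SULT2A1 at A_72_P165406 the alternatives gave -1.66 to -0.85, the last with the red blood cell score as a covariate. With that covariate 3 of the other steroid genes passed in HS minus TN (0 higher, 3 lower), with the differences of the 5 that lost their call between -0.39 and 0.35 against -0.46 and 0.33 without it, while the other alternatives and leaving out pigs gave at most 12. The count for LW minus Creole ran from 12 to 18. For NR5A1 A_72_P077746, HS minus TN was -0.93 under scaling to the 75th percentile and -0.56 within slide 1. That scaling moved the median difference of all probes by only 0.02.

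Some small differences that did not pass turned their sign. Under the 75th percentile scaling LW minus Creole was -0.0265 for STAR A_72_P748050 and 0.0311 for CYP11A1 A_72_P545357 within HS. With slide as a block LW minus Creole was 0.13 for STAR A_72_P714533, 0.0681 for NR5A1 A_72_P077746 within TN and 0.0827 for CYP11A1 A_72_P545357 within HS, and F1 minus mid-parent was 0.0627 for SULT2A1 A_72_P165406 and -0.0721 for CYP11A1 A_72_P545357. With array weights LW minus Creole was -0.0350 for STAR A_72_P748050 and -0.0509 for STAR A_72_P749046, and without a temperature term it was 0.052 for STAR A_72_P714533. The correlation of STAR with SULT2A1 lost its call without the 2 farthest pigs (0.51), that of STAR with SCARB1 was 0.23 under the 75th percentile scaling, and that of CYP11A1 with NR5A1 was 0.56 with slide means removed, 0.23 under that scaling and 0.0815 without the 2 farthest pigs. The cause of these changes was not tested.

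Without each pig in turn, LW minus Creole ran from -0.31 to -0.23 for SCARB1 O12201, which lost its call without 6 of the pigs, from -1.74 to -1.20 for SULT2A1 A_72_P165406, which passed without the Creole HS pig 5, from -0.0470 to 0.17 for STAR A_72_P748050, from -0.18 to 0.12 for STAR A_72_P714533 and from -0.0854 to 0.16 for STAR A_72_P749046. Within HS it ran from -0.0643 to 0.0704 for CYP11A1 A_72_P545357 and from -0.17 to 0.0284 for NR5A1 A_72_P077746. F1 minus mid-parent of SULT2A1 A_72_P165406 ran from -0.53 to 0.16. No paired analysis was possible because each pig gave 1 array, and no analysis by litter because the labels do not assign the littermate blocks. Probes near background, such as those of NR5A1, are limited by signal over background.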
